A study of Mus musculus with 24 samples.

Results

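The 10 genes described here are regulators of mitochondrial biogenesis in the mouse: the coactivators Ppargc1a (PGC-1 alpha), Ppargc1b (PGC-1 beta) and Pprc1 (PRC), the transcription factors Nrf1, Gabpa and Esrra, and the mitochondrial DNA (mtDNA) factors Tfam, Tfb1m, Tfb2m and Polg. They were taken by symbol from the gene tables of mouse embryonic stem cells (mESC) and of neural progenitor cells (NPC), and all 10 were listed in both, among 17501 genes in mESC and 16024 in NPC. The study used 24 RNA sequencing libraries, 12 per cell type, with 2 libraries for each of 6 genotypes of Htt, the huntingtin gene. The genotypes were WT (wild type), KO (knockout of Htt), and heterozygous Hdh CAG knock-in alleles, called Q20, Q50, Q92 and Q111 after the 20, 50, 92 or 111 CAG repeats that the titles give. The growth protocol gives 89 repeats for the third allele. Each repeat length was 1 cell line, so length cannot be told apart from other differences between lines. mESC were grown in serum and LIF on gelatin with irradiated feeder fibroblasts; NPC were derived from such cells in N2B27 medium and kept on laminin with FGF and EGF. The design text speaks of biological samples but names no separate cultures or clones, so p-values measure the spread between these libraries, which may be technical.

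The PGC-1 coactivators bind no DNA themselves; they are recruited to promoters by factors such as NRF1, the GABP complex and ERR alpha, and switch on nuclear genes for respiration. Among the targets of those factors are genes that copy and transcribe mtDNA: TFAM packages mtDNA and starts its transcription, TFB2M opens the promoter for the mitochondrial RNA polymerase, TFB1M methylates mitochondrial ribosomal RNA, and POLG is the catalytic subunit of the mtDNA polymerase. Loss of PGC-1 alpha is a proposed effect of mutant huntingtin in the striatum, in part through CREB and TAF4 at the Ppargc1a promoter.

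RefSeq windows on GRCm38.p6 were held for 9 of the 10 genes, and the 250 bases before each start were searched on both strands for letters known from this pathway. The stretch before the Ppargc1a start is shown because CREB is known to act on this gene through a CRE. It lies at chr5:51567726-51567875 on the minus strand. The capitals mark TGACG, the CRE core, on the other strand 45 bases before the start. Whether these letters are the site at which CREB acts was not tested.
Ppargc1a: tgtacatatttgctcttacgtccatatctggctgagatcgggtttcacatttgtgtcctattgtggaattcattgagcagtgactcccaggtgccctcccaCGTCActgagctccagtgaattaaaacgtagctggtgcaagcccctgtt
The full CRE, TGACGTCA, was in none of the 9 genes and in 1.55% of all 32851 windows; TGACG, which was added after the sequences had been seen, was in 17.8% of them and also in Polg and Tfb1m. The next short stretches show the ETS letters CCGGAAG, which GABP binds, in capitals; 6.91% of all windows held them on one strand or the other. In Tfam they lay 41 bases before the RefSeq start (chr10:71238075-71238101, minus strand), in Polg 32 bases before it (chr7:79466295-79466321, minus strand), and in Gabpa on the other strand 87 bases before it (chr16:84835021-84835047, plus strand). The Tfam and Polg stretches fall inside longer GENCODE M21 transcripts of the same genes.
Tfam: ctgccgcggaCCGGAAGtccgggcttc
Polg: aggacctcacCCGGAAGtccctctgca
Gabpa: agggtaagtgCTTCCGGgtccctcagc
The NRF1 letters GCGCNTGCG were found in Esrra alone, 87 bases before its start on the other strand, against 5.19% of all windows, and their stricter form GCGCATGCG (1.45%) in none. Gabpa also held the YY1 letters AAGATGGCG (0.606%). The ERR letters TCAAGGTCA (0.387%) and TNAAGGTCA (1.14%) were in none. A match is a description of letters and not a binding site, and no match says only that these letters are not in this window.

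The mESC libraries held between 58546211 and 81502284 recovered reads, and the NPC libraries between 48525333 and 118038952. Values are CPM that the authors had scaled further, called normalised CPM here, and tests were run on log2(CPM + 1) with limma over all tested genes. Genes with an adjusted p (Benjamini-Hochberg) under 0.05 are termed called. In NPC, Htt had 100.1 and 94.9 normalised CPM in KO and 137 and 177 in WT, without overlap, but the log2 difference of -0.67 (SE 0.14) had an adjusted p of 0.0673. In mESC, the library labelled KO 1 had 139 normalised CPM of Htt, above both WT libraries at 124 and 113, and the library labelled KO 2 had 68.5; no direction from the mESC knockout can be read without that reservation. Which part of Htt was deleted is not given in the labels. Neural progenitor markers summed to between 4007 and 9383 normalised CPM in all NPC libraries against 139 to 548 in mESC. The Q20 NPC libraries, the reference for the longer alleles, stood apart. Their pluripotency markers summed to 106 and 108 normalised CPM, with Pou5f1 at 90.1 and 87.4, against 4.72 to 26.5 in the other 10 NPC libraries. Of the 4 tested, Pou5f1 and Nanog were called higher in Q20 than in WT, and 2 had lower values in Q20. Klf4 had 3.19 and 3.83 normalised CPM in Q20 and 5.89 and 4.41 in WT. Esrrb had 0.721 and 0.751 in Q20 and 0.893 and 4.22 in WT. In bulk RNA, fewer cells of a type and less RNA per cell cannot be told apart.

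Per kilobase of exon, Gabpa and Tfam stood highest among the 10 genes in mESC, with mean levels of 32 and 25.8 normalised CPM per kilobase, followed by Pprc1 at 16.8, Polg at 12.5 and Nrf1 at 10.8. In NPC the order was led by Polg at 24, Gabpa at 20.5, Tfam at 17.9 and Esrra at 9.72. The RNA of the coactivators was unequal: in NPC, Pprc1 had 8.37, Ppargc1a 3.59 and Ppargc1b 0.645 normalised CPM per kilobase. In mESC, Ppargc1b was at 0.685 and Ppargc1a at 0.0315. Ppargc1a was thus near the limit of counting in mESC, with 0 to 78 recovered reads per library. Its highest level there was 1.02 normalised CPM, in the library labelled Q20 2; WT 2 had no read, which allows up to 0.0531 normalised CPM. It did not pass the filter of 1 CPM in at least 2 libraries, so 9 of the 10 genes were tested in mESC and all 10 in NPC. The tables were scaled separately, and levels were not tested between cell types.

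**Figure D1:**
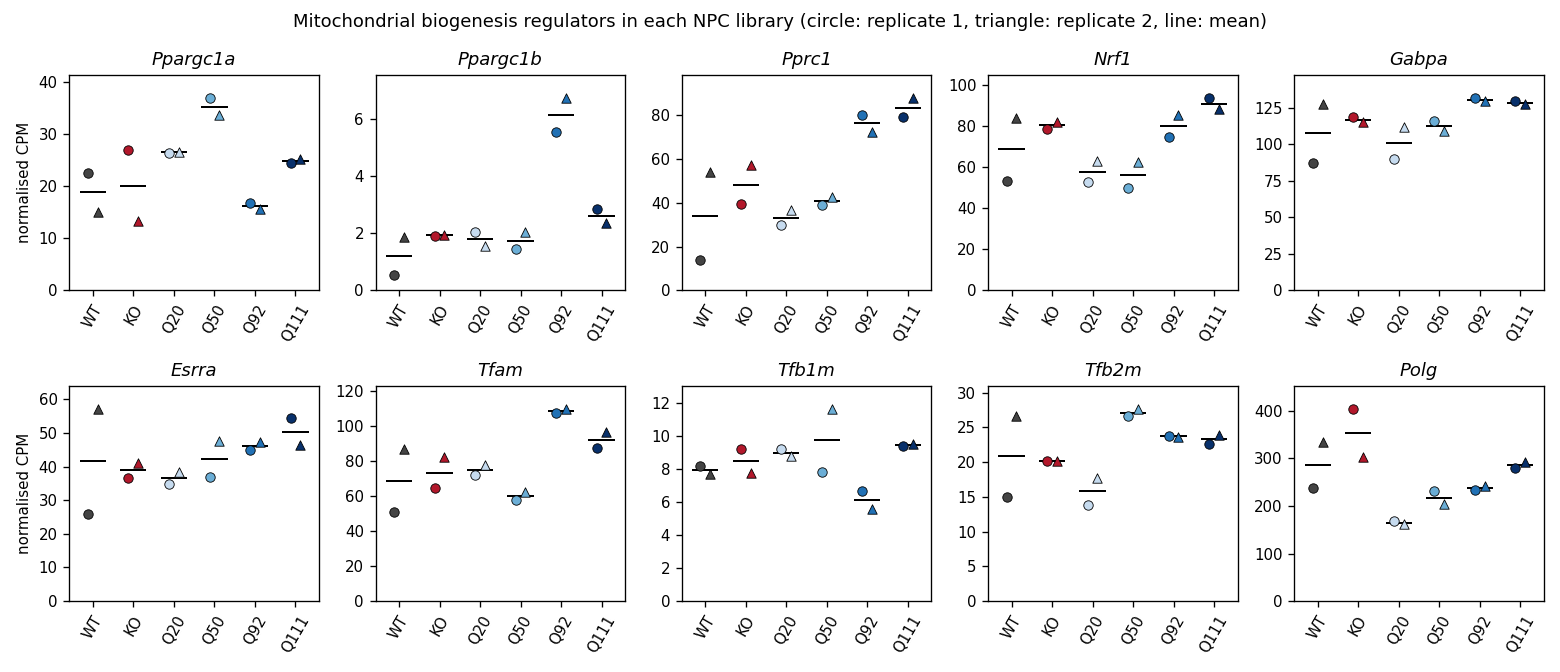
Normalised CPM (vertical axes, each from 0) of the 10 genes in the 12 NPC libraries, by genotype; circles are replicate 1, triangles replicate 2 and lines group means. Pprc1 lies at 72.2 or more in the Q92 and Q111 libraries and at 42.6 or less in those of Q20 and Q50, and Ppargc1b is highest in Q92.

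The first question was whether these genes moved with CAG length in NPC. Over the 8 knock-in NPC libraries, 3 of the 10 genes were called for a slope on repeat length, Pprc1, Polg and Nrf1, and all 3 rose. Of all 13206 genes tested, 22% were called and 12% were called rising. The slopes of 8 of the 10 were above 0, as were those of 52.3% of all genes, and the median slope was 0.49 against 0.041 over all genes tested. Slopes are the log2 change over the 91 repeats from 20 to 111. Ppargc1a was not among the called genes. Without the Q20 line, whose libraries stood apart, 2 were called, Nrf1 and Pprc1, and without the Q111 line Ppargc1b and Pprc1. The shares of all genes called in these fits without a line were not kept, so these counts cannot be set against a background. With 1 mean value per line, which leaves 4 points, 0 of the 10 genes and 0 of all genes were called by limma, with 1831 of all genes at an unadjusted p under 0.05.

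Of the coactivators, Pprc1, a serum-inducible relative of PGC-1 alpha that binds NRF1, was the one called for a slope. It lies at chr19:46044886-46072915 (plus strand). Its NPC levels were 30 and 36.5 normalised CPM in Q20, 38.9 and 42.6 in Q50, 80.3 and 72.2 in Q92, and 79.1 and 87.9 in Q111. The group means rose at each step, and no library of Q92 or Q111 overlapped with Q20 or Q50. The slope was 1.42 (SE 0.16, adjusted p = 0.00135), and over 20 alternatives it ran from 1.34 to 1.58 and was called in 19, all but the fit to 1 mean per line (adjusted p = 0.295). Pair by pair, Pprc1 was not called: the log2 difference from Q20 was 1.31 (SE 0.50, adjusted p = 0.0827) for Q111 and 1.18 (SE 0.50, adjusted p = 0.118) for Q92. The WT libraries, which entered that fit, had 13.9 and 53.8 normalised CPM. With only the libraries of both groups in the fit, Q111 against Q20 was called (adjusted p = 0.00476).

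Ppargc1b, a close relative of PGC-1 alpha, was highest in a single line. It had 5.56 and 6.75 normalised CPM in Q92, against 2.06 and 1.55 in Q20, 1.45 and 2.03 in Q50, and 2.86 and 2.35 in Q111. Q92 did not overlap with any other NPC group. Q92 exceeded Q20 by 1.35 (SE 0.28) on the log2(CPM + 1) scale, with an adjusted p of 0.00982 in limma and 0.0404 in edgeR's quasi-likelihood test on the recovered reads. The call was lost without Q20 replicate 2 (adjusted p = 0.0654) or Q92 replicate 2 (adjusted p = 0.0643). The slope over all 4 lengths was 0.87 (SE 0.45, adjusted p = 0.2); without the Q111 line it was 1.79 (adjusted p = 0.0469). At these low levels the pseudocount of 1 understates the change.

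Ppargc1a, the coactivator proposed to be lost with mutant huntingtin, followed no order of length. It lies at chr5:51454250-51567726 (minus strand). Its NPC levels were 26.4 and 26.6 normalised CPM in Q20, 37 and 33.6 in Q50, 16.8 and 15.7 in Q92, and 24.4 and 25.3 in Q111. Q50 was the highest and Q92 the lowest of the 4 lines, and no pair of them overlapped. The slope was -0.49 (SE 0.33, adjusted p = 0.32). It stayed below 0 in all 20 alternatives, from -0.99 without the Q20 line to -0.18 without the Q92 line, and was called in none. The difference from Q20 was -0.68 (SE 0.31, adjusted p = 0.136) in Q92, 0.40 (SE 0.31, adjusted p = 0.429) in Q50 and -0.09 (SE 0.31, adjusted p = 0.845) in Q111. With only the Q20 and Q92 libraries in the fit, Ppargc1a was called lower in Q92 (adjusted p = 0.0151). Against WT in place of Q20, none was called: the Q92 difference was -0.18 (adjusted p = 0.738), that of Q50 0.90 (adjusted p = 0.14) and that of Q111 0.41 (adjusted p = 0.374).

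Among the transcription factors, Nrf1 (chr6:30047988-30153458, plus strand), which activates many respiratory chain genes and Tfam, rose with length. It had 52.6 and 62.8 normalised CPM in Q20, 49.7 and 62.4 in Q50, 74.6 and 85.3 in Q92, and 93.6 and 88.1 in Q111. Q20 and Q50 overlapped, and all 4 libraries of Q92 and Q111 lay above them. The slope was 0.72 (SE 0.17, adjusted p = 0.0222). Its call rested on few libraries: the adjusted p was 0.0825 without Q20 replicate 1, 0.0708 and 0.0639 without Q111 replicate 1 or 2, 0.14 without the Q111 line, and 0.0549 with log2 of the length.

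Gabpa (chr16:84834925-84863779, plus strand) encodes the DNA-binding subunit of GABP, also called NRF2. It had 90.3 and 112 normalised CPM in Q20, 116 and 109 in Q50, 132 and 130 in Q92, and 130 and 128 in Q111. Q20 overlapped with Q50, the 4 libraries of Q92 and Q111 lay above both, and the slope of 0.38 (SE 0.12) had an adjusted p of 0.0599. Its partner subunit Gabpb1 was called rising, with a slope of 0.70 (SE 0.15, adjusted p = 0.0157); it was named after its values were seen. Esrra (chr19:6910977-6921813, minus strand) encodes the nuclear receptor ERR alpha, a main partner of PGC-1 alpha. Esrra had 34.7 and 38.4 normalised CPM in Q20, 37 and 47.7 in Q50, 44.8 and 47.3 in Q92, and 54.4 and 46.3 in Q111. Its group means rose at each length, but neighbouring lines overlapped, and the slope of 0.42 (SE 0.16) was not called (adjusted p = 0.0886).

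Of the mtDNA factors, Polg (chr7:79446231-79466362, minus strand) was the one called for a slope over the 4 lines. It had 168 and 162 normalised CPM in Q20, 230 and 204 in Q50, 233 and 241 in Q92, and 281 and 292 in Q111. The 4 lines stood in the order of their lengths with no overlap between neighbours. The slope was 0.70 (SE 0.12, adjusted p = 0.00695). It was 0.54 without the Q20 line (adjusted p = 0.107) and 0.63 without the Q111 line (adjusted p = 0.0579). WT had 238 and 335 normalised CPM and KO 404 and 304, and the Q20 libraries lay below all other NPC libraries. Polg shared 8.57% of its exon bases with Fanci on the other strand. The counting's use of strand is not given in the sources used here, so reads of the shared bases may not be told apart. The slope of Fanci was 0.75 (SE 0.20, adjusted p = 0.0341).

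Tfam, Tfb2m and Tfb1m were not called for a slope. Tfam (chr10:71225464-71238280, minus strand) had 71.7 and 77.6 normalised CPM in Q20, 57.5 and 62.3 in Q50, 107 and 110 in Q92, and 87.2 and 96.7 in Q111. The slope of 0.56 (SE 0.23) had an adjusted p of 0.119; the lines did not overlap, but Q50 was the lowest and Q92 the highest. Tfb2m (chr1:179528055-179546267, minus strand) was lowest in Q20, at 13.8 and 17.8 normalised CPM, and stood between 22.7 and 27.7 in the longer alleles. Its slope was 0.41 (SE 0.26, adjusted p = 0.294) and was -0.33 without the Q20 line. Tfb1m (chr17:3519256-3557781, minus strand) was lowest in Q92, at 6.64 and 5.6 normalised CPM against 7.79 to 11.6 in the other 3 lines. Its slope was -0.19 (SE 0.30, adjusted p = 0.693) and was 0.05 without the Q92 line.

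**Figure D2:**
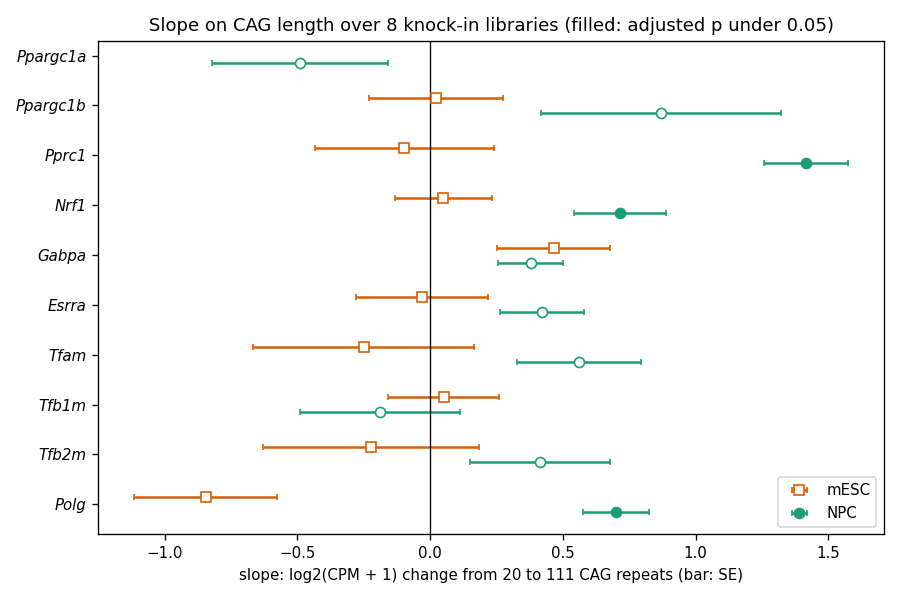
Slope of log2(CPM + 1) on CAG length (horizontal axis, log2 change from 20 to 111 repeats; bars are SE) in mESC (squares) and NPC (circles); filled symbols were called. Pprc1, Nrf1 and Polg are filled in NPC, and the mESC and NPC slopes of Polg lie on either side of 0; Ppargc1a was not tested in mESC.

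The pairs with Q20 share its libraries, so their values are given side by side and not compared. In Q92 against Q20, 1 of the 10 genes was called (Ppargc1b, above), where 25.8% of all genes were. All 10 genes had Q92 and Q20 libraries that did not overlap, as did 77.2% of all genes; 8 were higher in Q92, and Ppargc1a and Tfb1m had the lower values. In Q111 against Q20, 1 of the 10 was called, where 28.3% of all genes were. This was Polg, with a log2 difference of 0.79 (SE 0.19, adjusted p = 0.0168). Its call was lost without any one of the 4 libraries (adjusted p from 0.0738 to 0.0914) and against WT in place of Q20 (difference 0.02, adjusted p = 0.955). All 10 genes again did not overlap between the groups, against 78.2% of all genes, and Ppargc1a alone had the lower value. Fits restricted to the libraries of each pair called 5 genes in Q92 (Polg, Ppargc1a, Ppargc1b, Pprc1 and Tfam) and 4 in Q111 (Esrra, Nrf1, Polg and Pprc1), and the calls over all genes also rose, from 3407 to 6160 and from 3743 to 6712.

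In Q50 against Q20, limma and edgeR called 0 of the 10 genes, where limma called 18.8% of all genes; 1 was at an unadjusted p under 0.05, against 31.5% of all genes. That gene was Tfb2m, higher by 0.75 (SE 0.25, adjusted p = 0.076), with 26.6 and 27.7 normalised CPM in Q50; it was called with only both groups in the fit (adjusted p = 0.0397). The libraries of 5 genes did not overlap between Q50 and Q20, against 70.1% of all genes. For 3 of the 10 genes (Esrra, Polg and Pprc1) the mean rose at every step of length; means moved in one direction at every step for 14.8% of all genes.

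Some markers of other cells moved with these lines. For the NPC slope, 22% of all genes were called, and shares of a marker list near this are not results about the list. Of 6 astrocyte markers, 3 were called falling with length in NPC (Aqp4, Slc1a2 and Gfap) and none rising; their summed level was 1215 and 1366 normalised CPM in Q20, 331 and 856 in Q50, 24 and 234 in Q92, and 178 and 185 in Q111. Of 7 fibroblast markers, 5 were called falling (Thy1, Col3a1, Pdgfrb, Col1a2 and Lum), with sums of 244 and 300 in Q20, 866 and 888 in Q50, 6.41 and 7.3 in Q92, and 2.51 and 2.56 in Q111. Of 4 tested pluripotency markers, Pou5f1 and Nanog were called falling and Klf4 rising; of 6 neuron markers Dcx was called falling, and of 9 neural progenitor markers Olig2 and Nes rose and Hes5 fell. None of 3 early lineage markers was called for a slope. In NPC Q20 against WT, 4 of 6 neuron markers were called higher and 1 lower, with Stmn2 at 103 and 128 normalised CPM in Q20. Of the 3 early lineage markers, 2 were called higher there and 1 lower. Fibroblast markers were called higher in 5 of 7 and astrocyte markers in 2 of 6. Of 9 neural progenitor markers 1 was called lower, where 14.5% of all genes were called. No fibroblast or astrocyte marker was under 1 CPM in every NPC library, while Tdgf1, Gata6, Foxa2 and Mixl1 were. The part of these markers in the slopes of Pprc1, Nrf1 and Polg was not tested; marker genes beyond the first of each list and direction were named after their values were seen.

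Against WT, the NPC of the Htt knockout showed no call among the 10 genes by limma or edgeR, where limma called 1.42% of all genes; none was at an unadjusted p under 0.05, against 13.3% of all genes. All 10 differences were above 0, as were 54.4% over all genes, but they ran from 0.01 to 0.76 with a median of 0.135, against 0.03 over all genes. Ppargc1b alone did not overlap between the groups, against 29.7% of all genes. Ppargc1a had 26.9 and 13.3 normalised CPM in KO and 22.6 and 15.1 in WT, a difference of 0.04 (SE 0.31, adjusted p = 0.979), which was -0.44 without KO replicate 1 and -0.23 without WT replicate 2. The largest difference, 0.76 for Pprc1 (SE 0.50, adjusted p = 0.611), rested on the WT libraries at 13.9 and 53.8. Pprc1 was -0.18 without WT replicate 1 and 1.70 without WT replicate 2 (adjusted p = 0.00903), where Ppargc1b was called as well. WT replicate 1 was the lower of both WT libraries for 8 of the 10 genes, all but Ppargc1a and Tfb1m.

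Q20 differed from WT in 1 of the 10 genes, where 14.5% of all genes were called. Polg was lower in Q20 by 0.77 (SE 0.19, adjusted p = 0.0276). The call was lost with only both groups in the fit (adjusted p = 0.198) and without Q20 replicate 1, Q20 replicate 2 or WT replicate 2 (adjusted p = 0.116, 0.137 and 0.0819). Without WT replicate 1, Tfb2m was also called, and without WT replicate 2 Ppargc1b and Pprc1 were called in place of Polg. Ppargc1a was 0.50 higher in Q20 (SE 0.31, adjusted p = 0.362). Polg, Ppargc1a and Tfb1m did not overlap between Q20 and WT, against 48.6% of all genes.

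**Figure D3:**
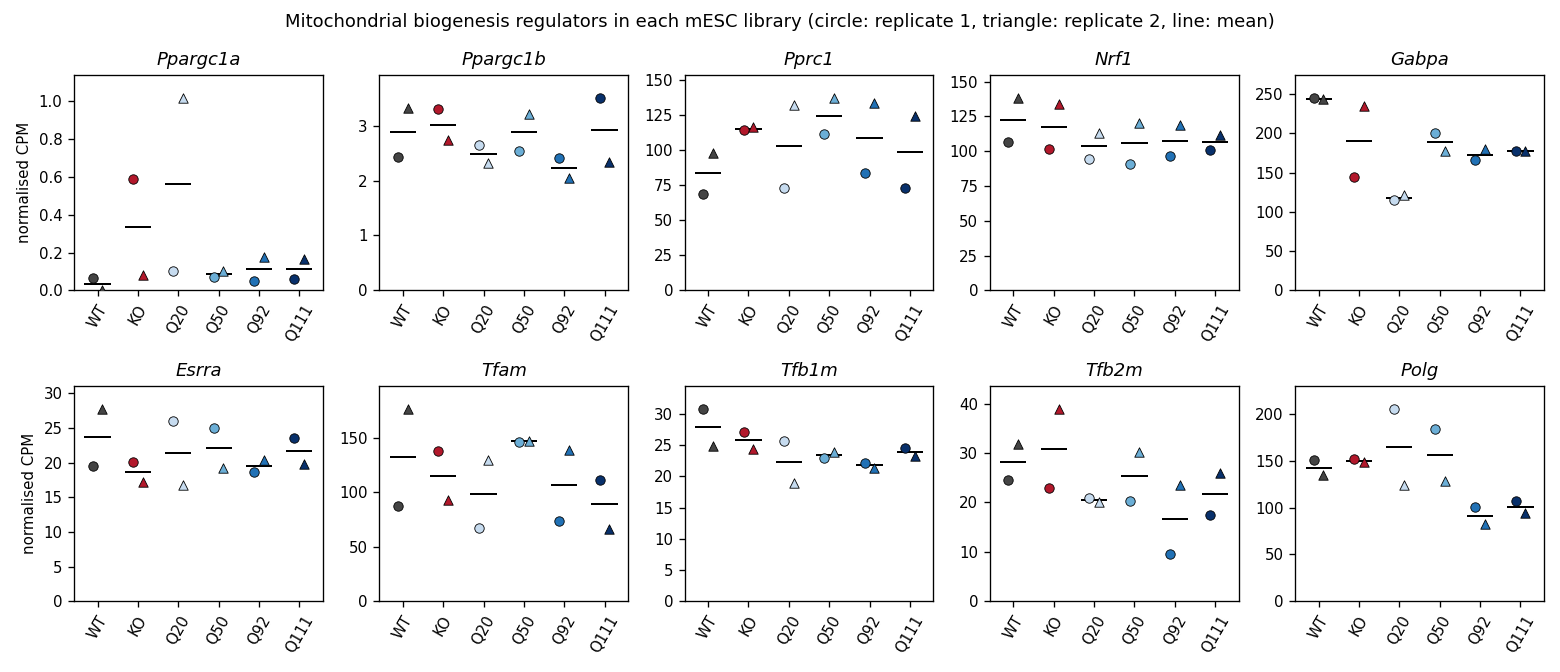
Normalised CPM (vertical axes, each from 0) of the 10 genes in the 12 mESC libraries, by genotype; circles are replicate 1, triangles replicate 2 and lines group means. The replicates of 1 genotype often lie as far apart as the genotypes do, and Ppargc1a is at 1.02 or less in every library.

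In mESC, limma and edgeR called none of the 9 tested genes in any of the 6 comparisons. The shares of all genes that limma called were also small: 0.0144% for KO against WT, 0.323% for Q20 against WT, 0.00719% for Q50 and for Q92 against Q20, and 0% for Q111 against Q20 and for the slope. With the replicate number as a block these calls over all genes went from 2 to 16, from 45 to 1475, from 1 to 137, from 1 to 64 and from 0 to 8, and stayed at 0 for the slope; of the 9 genes, Gabpa alone was then called, in Q20 against WT. At an unadjusted p under 0.05 the counts were 0 of 9 for KO (3.97% of all genes), 1 for Q20 against WT (12.3%), 1 for Q50 (6.37%), 2 for Q92 (5.37%), 2 for Q111 (2.69%) and 1 for the slope (2.57%). In each of the 5 pairs, 2 of the 9 genes did not overlap between the groups. Over all genes this share was 25% for KO against WT, 39.2% for Q20 against WT, and 32.7%, 30.3% and 22.7% for Q50, Q92 and Q111 against Q20. In none of the 9 did the mean rise, or drop, at every step of length, against 6.14% of all genes.

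Gabpa had the smallest adjusted p of the 9 genes for Q20 against WT in mESC. It had 245 and 244 normalised CPM in WT, 115 and 121 in Q20, and 166 to 201 in the longer alleles, with 145 and 235 in KO. Q20 lay below every other mESC library. The difference of Q20 from WT was -1.05 (SE 0.22, adjusted p = 0.0994), and with the replicate number as a block, which pairs the mESC libraries, it was called (adjusted p = 0.0198). Feeder fibroblast markers summed to 52.5 and 69.4 normalised CPM in Q20 and 15.2 and 17.9 in WT. This was not particular to Q20: the sums were 46 and 50.5 in Q50, 59.3 and 64.1 in Q92, and 47.9 and 54.1 in Q111. In KO they were 12.2 and 15.7. For Q20 against WT, 2 of 6 tested feeder markers were called higher (Col1a2 and Col1a1). Other marker lists had no call in this pair, but all 8 tested pluripotency markers had lower values in Q20 (sums of 1999 and 2678 against 3283 and 3790 in WT) and all 7 tested neural progenitor markers higher ones (336 and 534 against 139 and 193). Of 7 tested early lineage markers, 6 had lower values in Q20 and 4 of the 7 were at an unadjusted p under 0.05 (sums of 10.8 and 11.1 against 23.1 and 24.0). The part of these markers in the difference was not tested. The slope of Gabpa, 0.47 (SE 0.21, adjusted p = 1), was -0.15 without the Q20 line.

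Polg in mESC had 206 and 124 normalised CPM in Q20, 184 and 128 in Q50, 100 and 82 in Q92, and 107 and 93.9 in Q111. The Q92 and Q111 libraries lay below all those of Q20 and Q50. The slope was -0.85 (SE 0.27) with an unadjusted p of 0.0118 in limma and an adjusted p of 1, and Q92 differed from Q20 by -0.81 (SE 0.27, adjusted p = 0.756). With the replicate number as a block, the limma adjusted p was 0.643 for the slope and 0.0915 for Q92 against Q20, and neither was called. Pprc1 in mESC ranged from 68.7 to 137 normalised CPM, and replicate 2 was the higher in each of the 6 genotypes; its slope was -0.10 (SE 0.34, adjusted p = 1). Tfam spread widely between replicates, from 66.5 to 177 normalised CPM over the 12 libraries, with 87.3 and 177 within WT. Ppargc1b lay between 2.05 and 3.51 normalised CPM in all mESC libraries. Nrf1, Esrra, Tfb1m and Tfb2m gave slopes of 0.05, -0.03, 0.05 and -0.22, each smaller than its SE.

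The slopes were then compared between cell types. Over the 16 knock-in libraries, 2 of the 9 genes tested in both tables were called for a difference of slopes, both with the larger slope in NPC, where 4.86% of 12321 genes were called in either direction and 2.7% in that direction. For Polg the NPC slope exceeded that of mESC by 1.55 (SE 0.30, adjusted p = 0.0102). Fanci, which shares 8.57% of the Polg exon bases on the other strand, had slopes of 0.75 (SE 0.20) in NPC and -0.36 (SE 0.19) in mESC. The part of Fanci in the Polg difference was not tested. For Pprc1 the difference was 1.51 (SE 0.39, adjusted p = 0.0378), and the call was lost without any one of 11 of the 16 libraries (adjusted p from 0.0512 to 0.106). Nrf1 differed by 0.67 (SE 0.25, adjusted p = 0.137). These fits ignore the replicate number, which pairs the mESC libraries. With it as a block in each cell type, limma gave an adjusted p of 0.0025 for Polg, 0.00394 for Pprc1 and 0.0487 for Nrf1. Calls over all genes then went from 599 to 1005. With 1 mean per line neither Polg nor Pprc1 was called (adjusted p = 0.278 and 0.282), nor was any other gene by limma, with 1358 of all genes at an unadjusted p under 0.05. Of 6 fibroblast markers tested in both cell types, 4 were called with a lower slope in NPC, as was Nanog among 4 pluripotency markers; their part in the difference was not tested.

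**Figure D4:**
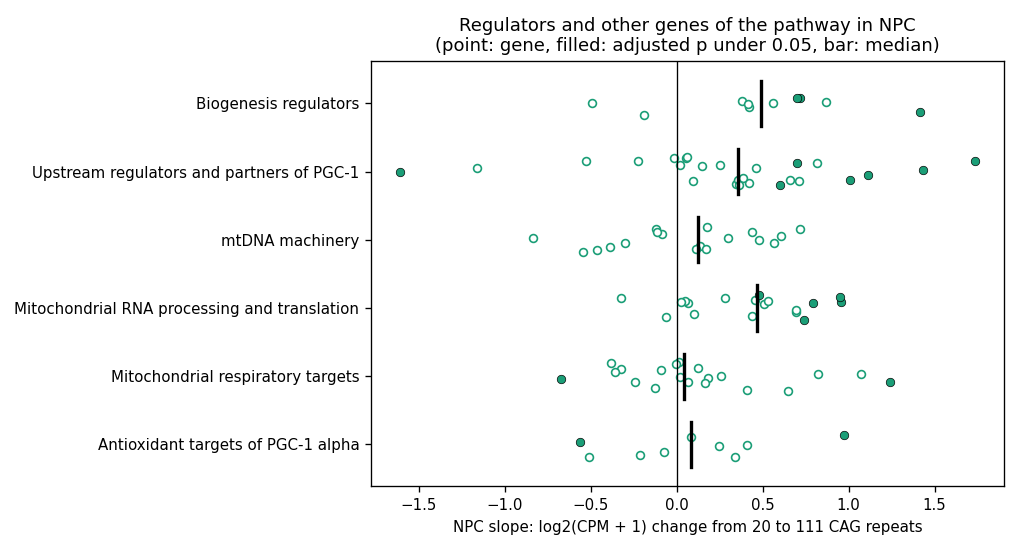
NPC slope (horizontal axis, log2 change from 20 to 111 repeats) of the 10 regulators and of 5 lists of other genes of the pathway; each point is a gene, filled points were called and vertical bars are medians. The medians are 0.49 for the regulators, 0.47 for mitochondrial RNA processing and translation, and 0.12 for the mtDNA machinery.

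Other genes of the pathway were counted from lists of known roles, beside the 22% of all genes called for the NPC slope and the 12% called rising; shares near these are not results about a list. Of 26 upstream regulators and partners of PGC-1, 6 rose with length in NPC and 1 fell, with a median slope of 0.36 against 0.041 over all genes. The smallest adjusted p among the rises was that of Prkaa1, a catalytic subunit of AMP-activated kinase, which had 38 and 45.3 normalised CPM in Q20 and 75.7 and 104 in Q111 (slope 1.01, SE 0.18, adjusted p = 0.0069). The others were Gabpb1, Hcfc1, Kat2a, Myc and Prkaa2, named after their values were seen. Perm1, a PGC-1 and ERR induced regulator of muscle, fell from 4.44 and 3.94 normalised CPM in Q20 to 0.731 and 1.01 in Q111 (slope -1.61, SE 0.25, adjusted p = 0.00427). Creb1 and Taf4, which are linked to Ppargc1a in work on huntingtin, had slopes of 0.66 (SE 0.52, adjusted p = 0.394) and 0.36 (SE 0.21, adjusted p = 0.258); both were named after their values were seen.

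Of 18 genes for mitochondrial RNA processing and translation, 5 rose and none fell, with a median slope of 0.47; the same 22% and 12% of all genes stand beside this count. Tufm, the mitochondrial elongation factor Tu, had 82.2 and 78.5 normalised CPM in Q20 and 165 and 143 in Q111 (slope 0.95, SE 0.13, adjusted p = 0.00279); Gfm1, Grsf1, Elac2 and Pnpt1 were the others, named after their values were seen. None of 18 genes of the mtDNA machinery was called for a slope by limma, with a median of 0.12. In limma, 2 of the 18 were at an unadjusted p under 0.05, against 4874 of all 13206 genes. Of 20 respiratory and metabolic targets, Cycs (cytochrome c) rose, from 32 and 31.9 normalised CPM in Q20 to 81.4 and 109.5 in Q111 (slope 1.24, SE 0.28, adjusted p = 0.0173). The median slope of the list was 0.042. Of 9 antioxidant targets 2 were called, a share at that of all genes (22%): the mitochondrial peroxiredoxin Prdx3 rose (slope 0.97, SE 0.16, adjusted p = 0.00563) and Prdx5 fell (slope -0.56, SE 0.14, adjusted p = 0.0289). Of mitochondrially encoded genes the tables held 2, of which 2 were tested in mESC and 1 in NPC, and limma called none in any comparison, with 1 at an unadjusted p under 0.05 in KO against WT in each cell type and in Q20 against WT in NPC. In mESC limma called none of the 86 tested genes of these lists in any comparison, and none was called for a difference of slopes between cell types. In the NPC knockout, Twnk, the mtDNA helicase, fell by 0.94 on the log2 scale against WT (SE 0.175, adjusted p = 0.0483). Pparg was called higher at low levels, 1.38 and 1.69 against 0.158 and 0.565 normalised CPM (difference 0.91, SE 0.16, adjusted p = 0.0398). They were 1 call among 18 genes and 1 among 26, where 1.42% of all genes were called. With only the KO and WT libraries in the fit, limma called 0 of all genes. Neither level was particular to the knockout. Twnk was also called lower by limma in NPC Q20 against WT (difference -0.80, SE 0.175, adjusted p = 0.0178), where 14.5% of all genes were called. Pparg had 1.3 and 1.24 normalised CPM in the Q50 NPC libraries.

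The genes whose NPC pattern was most like that of each coactivator, by Pearson's r of log2(CPM + 1) over the 12 NPC libraries, differed between the coactivators. For Ppargc1a they were Nr3c2 (r = 0.932), the mineralocorticoid receptor, Ptgr2 (0.919) and Clcn3 (0.902). For Ppargc1b they were P3h2 (0.963), Slc27a3 (0.959) and Zyx (0.956). For Pprc1 they were Utp20 (0.979), a factor of ribosomal RNA processing, Abcb1b (0.979) and Naa25 (0.978). In mESC, Pprc1 was closest to Trrap (0.983), Nup214 (0.968) and Hcfc1 (0.964). Among the members themselves in NPC, Pprc1 had r = 0.902 with Gabpa, 0.857 with Tfam, 0.839 with Esrra and 0.789 with Nrf1. Ppargc1a had negative r with all others except Tfb1m (0.669), from -0.622 with Tfam to -0.00254 with Tfb2m. The points of each r share lines, depth and scaling, replicates of a line are not independent, and the values are descriptions.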

How the data were processed

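The 24 libraries are paired-end sequencing of total RNA on an Illumina NextSeq instrument, per the labels' protocols. The submitters' processing notes name CASAVA 1.8, STAR and the build GRCm38.p6, with no role or order; the counting tool, its use of strand and the gene filter are not given in the sources used here. The deposited values, one table per cell type, are a normalised signal on a CPM scale: CPM divided by TMM factors, which were recomputed from the values to a relative difference of at most 8.9e-12. All values gave whole reads (tolerance 0.01), which showed the depth. The members and all gene lists were chosen with earlier results of these data known.

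Values were taken as log2(CPM + 1) for genes with at least 1 CPM in at least 2 libraries of a cell type, 13916 in mESC and 13206 in NPC. limma 3.58.1 in R 4.3.3, with a mean-variance trend, fitted 6 group means per cell type, the slope over 8 knock-in libraries, and the difference of slopes over 16. Tests were two-sided, with Benjamini-Hochberg adjustment over all tested genes. edgeR 4.0.16 (quasi-likelihood) on the recovered reads was an alternative, as were another pseudocount, no filter, median-of-ratios scaling, the replicate number as a block, leaving out each library, fits to fewer groups, WT as reference, log2 of the length, 89 repeats and 1 mean per line. Leaving out each line was added after the data had been seen. Same-numbered mESC libraries deviated together in all 15 pairs of groups (r from 0.25 to 0.547), so the numbers pair them. All members and Htt were named, with 1 rising and 1 falling called gene of smallest adjusted p per list and comparison, and for each coactivator the 3 most alike genes among those averaging 5 CPM or more; some of the genes that this rule names are not reported here. Group means of figures were computed with Python 3.11.15.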

Additional observations from a re-analysis of the deposited data

Results flagged for a closer look

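A difference of slopes between the cell types was found for 2 genes by its own test in limma over the 16 knock-in libraries. The NPC slope of Polg exceeded its mESC slope by 1.55 (adjusted p = 0.0102), at 0.70 in NPC and -0.85 in mESC. Polg shares 8.57% of its exon bases with Fanci on the other strand, and reads of those bases may not be told apart. The NPC slope of Pprc1 exceeded its mESC slope by 1.51 (adjusted p = 0.0378), at 1.42 in NPC and -0.10 in mESC.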

How the results depend on the processing

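With only the libraries of both groups in the fit, the count of the 10 genes called in NPC was 0 for Q20 against WT, 1 for Q50, 5 for Q92 and 4 for Q111 against Q20. With WT as the reference Q111 gave 0. Leaving out 1 replicate at a time gave 0 to 2 for KO against WT and for Q20 against WT, 0 to 1 for Q92, 0 for Q111, 2 to 3 for the slope and 1 to 2 for the difference of slopes. With 1 mean per line the slope and the difference of slopes gave 0, and with log2 of the length the difference gave 1. The replicate block gave 1 (Gabpa) for Q20 against WT in mESC and 2 (Nrf1 and Polg) for Q111 against Q20 in NPC, and called Nrf1 for the difference of slopes (adjusted p = 0.0487); it changed no other count of these genes by limma by over 1.5 times. In NPC the numbers pair nothing that the labels name, and 3 of 15 pairs of groups had r over 0.1 (from -0.0495 to 0.467). The slope turned to 0.048 for Tfb1m in NPC without the Q92 line, to -0.33 for Tfb2m in NPC without the Q20 line, and to -0.15 for Gabpa in mESC without the Q20 line. In mESC, the slope of Pprc1 ran from -0.538 (without the Q20 line) to 0.165 (without Q111 replicate 1) over the 20 alternatives, with -0.481 the lowest without 1 library (Q20 replicate 1), and was 0.090 without Q20 replicate 2, 0.091 without the Q111 line and 0.004 without the Q50 line. In NPC, Ppargc1a turned to 0.41 for Q111 against WT, and for KO against WT it ran from -0.441 (without KO replicate 1) to 0.520 (without KO replicate 2), with -0.235 without WT replicate 2. For KO against WT in NPC, Pprc1 ran from -0.181 (without WT replicate 1) to 1.701 (without WT replicate 2). Over all genes the block moved the calls for the difference of slopes from 599 to 1005. With only both groups in the fit, calls over all NPC genes went from 188 to 0 for KO, 1920 to 476 for Q20 against WT, and 2478 to 3927, 3407 to 6160 and 3743 to 6712 for Q50, Q92 and Q111, and in mESC from 2 to 0 for KO, 45 to 0 for Q20 against WT and 1 to 0 for Q92. With edgeR they went from 188 to 107 for KO in NPC and from 45 to 12 for Q20 against WT in mESC. Of 170 counts, 138 stayed within 1.5 times, and of 481 values of single genes 426 kept direction and call. The cause was not tested. With 2 libraries per group, a fit that leaves out 1 assumes that the lone library varies like the other groups. Low levels limit Ppargc1a in mESC and Ppargc1b, at 31 to 432 reads per NPC library.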
